A study of Mus musculus with 18 samples.

Results

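The regions described here are the local splicing variations in which an intron can be kept. Such a variation gathers the splice junctions that leave one exon (a source variation) or enter one exon (a target variation), and some also hold an intron that is read through in place of being spliced. All variations whose type lists an intron were taken from the authors' 4 deposited tables, whatever else they hold. They numbered 22456 of the 128636 distinct variations in all, lay in 4308 genes and held 19432 distinct introns. The tables set PCBP1 knockdown or PCBP2 knockdown against control, on Day 2 and on Day 0.

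The cells were hematopoietic progenitors from E14.5 fetal livers of CD-1 mice, enriched by kit and depleted of CD71-bearing cells. Every group, controls included, was infected with an MSCV-PIG retrovirus that carries puromycin resistance and GFP and encodes an shRNA. The groups were PCBP1 knockdown, PCBP2 knockdown and control, the last with scrambled (SCR) or luciferase (LUC) hairpins. Day 0 cells had spent 48 hours in expansion medium with dexamethasone, stem cell factor and a low dose of erythropoietin, and Day 2 cells a further 2 days in differentiation medium with a higher dose of erythropoietin. Each of the 6 groups had 3 libraries from total RNA, made with different hairpins: SH1, SH3 and SH4 in each knockdown, and LUC-1 beside a pair of scrambled ones (SCR-1, SCR-2) in control.

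An intron kept in a transcript often introduces a stop codon, and such RNA is commonly held in the nucleus or degraded by nonsense-mediated decay. Maturing red cell precursors are known for programmed intron retention, in transcripts of splicing factors and of iron and membrane genes among others. The proteins PCBP1 and PCBP2 bind C-rich (poly(C)) RNA near splice sites and in untranslated regions and act in splicing, translation and mRNA stability.

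These sequences show what the results below turn on, read from annotated transcripts that keep the intron (RNA letters written as DNA, GRCm38, 5′ to 3′, exon in lower case and retained intron in capitals). The interval of Rnaseh2a is shown because it is the only intron that rose in PCBP1 knockdown, that of Cpne7 because it had the highest posterior among uncalled introns of the Day 0 PCBP2 knockdown, and those of Usp19 and Cuta because the junctions beside them changed while the intron stayed near 0. The lower-case stretch after the Usp19 intron is the whole cassette exon of 119 bases (chr9:108498123-108498241) that is skipped in PCBP1 knockdown. Those of Cpne7, Usp19 and Cuta begin with GT and end with AG, the usual intron ends, and that of Rnaseh2a begins with GT and ends with AC.
Rnaseh2a, chr8:84969659-84969733, minus strand: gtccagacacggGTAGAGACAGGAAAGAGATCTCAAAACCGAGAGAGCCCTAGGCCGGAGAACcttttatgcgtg
Cpne7, chr8:123130107-123130184, plus strand: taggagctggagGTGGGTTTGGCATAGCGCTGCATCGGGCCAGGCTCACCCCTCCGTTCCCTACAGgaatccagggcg
Usp19, chr9:108498025-108498241, plus strand: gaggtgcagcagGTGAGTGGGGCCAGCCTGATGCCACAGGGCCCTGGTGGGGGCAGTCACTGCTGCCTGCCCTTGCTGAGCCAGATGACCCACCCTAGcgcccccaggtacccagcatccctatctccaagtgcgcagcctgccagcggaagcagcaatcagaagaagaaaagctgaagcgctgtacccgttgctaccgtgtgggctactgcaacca
Cuta, chr17:26938638-26938738, minus strand: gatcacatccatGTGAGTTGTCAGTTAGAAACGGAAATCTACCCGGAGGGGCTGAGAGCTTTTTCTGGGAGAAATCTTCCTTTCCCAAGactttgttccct

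The introns were short, with quartiles of 86, 164 and 448 bases. Both ends lay at annotated exon ends in 9054 of the 19432 introns (46.6%), and 1230 introns were under 30 bases long, 274 of them 1 base or less, so that not every listed interval is an annotated intron. A table held between 16767 and 21443 variations with an intron, or 17.6% to 19.4% of its variations, and the intron faced 1 junction alone in 1002 to 2076 of them. In the others it competed with several junctions.

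The 18 libraries held 27033440 to 54096339 estimated reads each. On Day 0, with hairpins SH1, SH3 and SH4, the PCBP1 knockdown held 14.2, 59.4 and 24.3 CPM of Pcbp1 (the normalised read count, scaled to library size), against 186, 197 and 206 CPM in control, and 15.6, 57.2 and 40.4 CPM against 241, 281 and 284 CPM on Day 2. The PCBP2 knockdown held 71.0, 70.3 and 73.5 CPM of Pcbp2 on Day 0 against 282, 285 and 299 CPM in control, and 39.5, 37.0 and 48.0 CPM against 229, 225 and 247 CPM on Day 2. The targeted mRNA was lower than in every control in each of these libraries. The 9 erythroid markers found of 10 summed to between 359523 and 623705 CPM on Day 2 and between 3076 and 4259 CPM on Day 0. Progenitor markers summed to between 21.5 and 29.2 CPM on Day 2 and between 494 and 598 CPM on Day 0. Neutrophil markers summed to between 186 and 278 CPM on Day 2 and between 726 and 873 CPM on Day 0. For megakaryocyte markers the sums were 537 to 675 CPM on Day 2 and 212 to 265 CPM on Day 0. Hepatocyte markers summed to at most 4.75 CPM in any library. Among the Day 2 libraries, control LUC-1 lay apart on the first principal component of the expression values (36.6, against 1.40 for SCR-1 and 11.2 for SCR-2). The pooled splicing tables do not allow LUC-1 to be left out.

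In each table the authors give the expected percent spliced in, E(PSI), which is the share of a variation's use that goes to a part, for the 3 pooled libraries of a group. They also give the expected change (knockdown minus control, in percentage points) and a posterior, the probability of a change of 20 points or more. An intron or junction was called where that posterior was 0.95 or more, and "rose" and "fell" are used of called parts. These shares, changes and posteriors are the authors' values, with no spread over libraries and no depth for a variation. Both tables of a day use the same controls.

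Called introns were few. In the authors' deposited table for PCBP1 knockdown on Day 0, the intron rose in 1 of 21177 variations (0.00472%) and fell in 2 (0.00944%). For PCBP2 knockdown on Day 0 it rose in 2 of 21443 (0.00933%) and fell in 3 (0.014%). On Day 2 no intron rose and 1 of 16951 fell (0% and 0.0059%) in PCBP1 knockdown, and none of 16767 was called either way (0%) in PCBP2 knockdown, where the highest posterior was 0.725. The 9 calls concern 8 variations in 7 genes. A fall of 20 points needs a control level of about that size, which few introns had. Introns at 20% or more in control numbered 6 and 10 in the PCBP1 and PCBP2 tables of Day 0, and 14 and 11 on Day 2. The counts of introns that fell are limited by this. The expected change was under 1 point in size for 98.3% and 98.1% of introns in the PCBP1 and PCBP2 knockdowns on Day 0, and for 95.2% and 95.3% on Day 2.

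**Figure D1:**
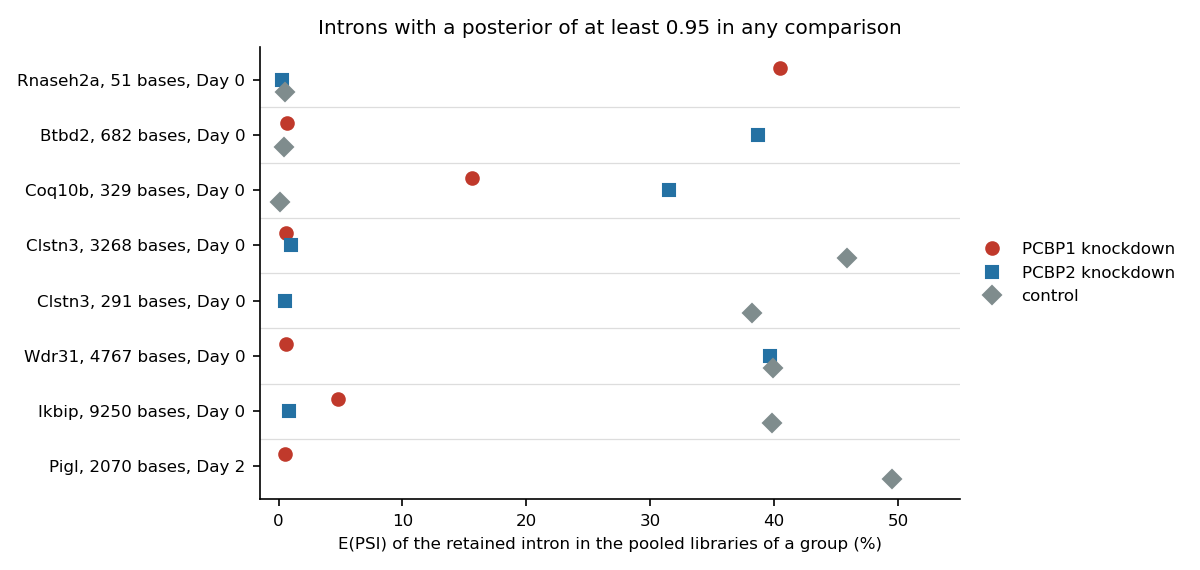
E(PSI) of the retained intron (x axis, percent) for each intron called in any comparison (rows), in the pooled libraries of PCBP1 knockdown, PCBP2 knockdown and control. Rnaseh2a, Btbd2 and Coq10b are high in a knockdown and near 0 in control, and the others are between 38.2% and 49.5% in control.

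The intron of Rnaseh2a, the catalytic subunit of RNase H2, which removes ribonucleotides from DNA, was kept in PCBP1 knockdown on Day 0. Its E(PSI) was 40.5% in PCBP1 knockdown and 0.3% in PCBP2 knockdown, against 0.5% in control. The deposited table gives a change of 38.9 points in PCBP1 knockdown with a posterior of 0.998. The competing junction over chr8:84967868-84969722 fell to 59.0% in PCBP1 knockdown, against 95% in control (posterior 0.955).

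The interval of 51 bases lies at chr8:84969671-84969721, on the minus strand. It overlaps an exon of Prdx2, which runs along the plus strand and encodes peroxiredoxin 2, an abundant antioxidant enzyme of red cells. The sources used here do not say whether strand was used, so reads of Prdx2 and of the Rnaseh2a interval cannot be told apart. Prdx2 mRNA stood at 290, 308 and 307 CPM in PCBP1 knockdown, against 358, 372 and 356 CPM in control on Day 0 (log2 fold change −0.26, SE 0.09, edgeR adjusted p = 0.222). The annotated transcript that keeps the interval, ENSMUST00000109736, was at 0, 0 and 0 CPM in PCBP1 knockdown and at 0.699, 0.532 and 0.865 CPM in PCBP2 knockdown, against 0.442, 1.30 and 0.615 CPM in control on Day 0. The transcript estimate therefore ran opposite to the E(PSI). Its own test missed the threshold (edgeR adjusted p = 0.164), and relative to its gene it was called lower in PCBP1 knockdown (edgeR's diffSpliceDGE, adjusted p = 7.66e-05). Rnaseh2a mRNA as a whole stood at 30, 34.0 and 30.6 CPM in PCBP1 knockdown, against 37.9, 38.4 and 38.5 CPM in control, a difference that was not called on Day 0 (log2 fold change −0.28, edgeR adjusted p = 0.449). On Day 2, where the variation is not listed, Rnaseh2a fell to 71.3, 73.4 and 55.8 CPM in PCBP1 knockdown, against 102, 113 and 151 CPM in control (−0.87, SE 0.13, edgeR adjusted p = 0.000198).

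Btbd2, a protein with a BTB domain, held an intron that rose in PCBP2 knockdown on Day 0. The first listed intron (chr10:80647878-80648559, minus strand, 682 bases) had an E(PSI) of 38.7% in PCBP2 knockdown and 0.7% in PCBP1 knockdown, against 0.4% in control. Its change in the deposited table was 37.1 points with a posterior of 0.993, and its junction fell to 60.7% in PCBP2 knockdown, against 98.9% in control (posterior 0.992).

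The next introns along the transcript did not pass the posterior but had like values. The second, of 1218 bases, stood at 26.8% in PCBP2 knockdown against 0.3% in control (posterior 0.703). The third, of 438 bases, stood at 27.3% against 0.1% (0.795), and the fourth, of 526 bases, at 14.3% against 0.2% (0.0146). The last 2 listed for PCBP2 knockdown were at 0.2% and 0.3%, against 0.1% and 0.2% in control, so that the high values run over 4 successive introns in the 5′ part. In PCBP1 knockdown no listed Btbd2 intron exceeded 0.7% on Day 0.

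Btbd2 mRNA was lower in the same cells. It stood at 2.11, 2.33 and 2.55 CPM in PCBP2 knockdown and at 3.39, 4.50 and 3.21 CPM in PCBP1 knockdown, against 7.10, 5.97 and 6.77 CPM in control on Day 0. Every knockdown library was below every control. The log2 fold change was −1.51 (SE 0.17, edgeR adjusted p = 0.000107) in PCBP2 knockdown and −0.84 (SE 0.16, edgeR adjusted p = 0.014) in PCBP1 knockdown. The mRNA thus fell in both, while the first intron was called in the PCBP2 knockdown alone and the others in neither. Day 2 values were 3.62, 3.05 and 4.64 CPM in PCBP2 knockdown, against 6.14, 7.60 and 6.92 CPM in control (−0.87, SE 0.18, edgeR adjusted p = 0.0096). The first 4 of these introns are not listed on Day 2.

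**Figure D2:**
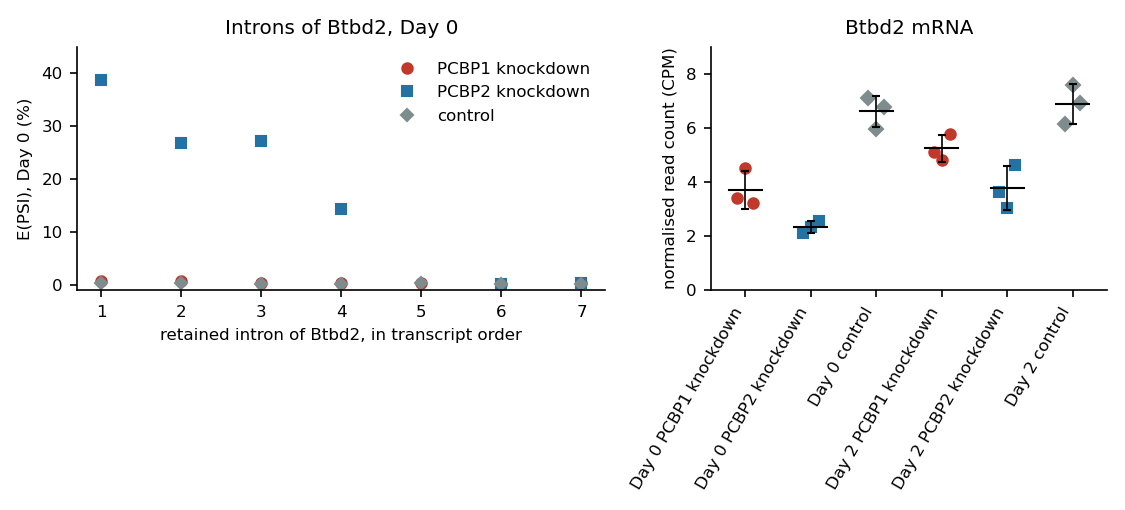
Left, E(PSI) on Day 0 (percent) of the Btbd2 introns in transcript order, in the pooled libraries of PCBP1 knockdown, PCBP2 knockdown and control. Right, Btbd2 mRNA in each library (points, CPM) with the group mean and SD (bars). The first 4 introns stand at 14.3% to 38.7% in PCBP2 knockdown, and the Day 0 PCBP2 knockdown libraries hold the lowest mRNA levels.

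Coq10b, a mitochondrial protein that binds coenzyme Q, held the third intron that rose (chr1:55067599-55067927, plus strand, 329 bases). Its E(PSI) on Day 0 was 31.5% in PCBP2 knockdown and 15.6% in PCBP1 knockdown, against 0.1% in control, and on Day 2 it was at most 0.1% in all groups. The deposited tables give 29.7 points and a posterior of 0.997 for PCBP2 knockdown, and a posterior of 0.0117 for PCBP1 knockdown. The competing junction fell to 67.0% in PCBP2 knockdown, against 99.7% in control. Coq10b mRNA stood at 8.40, 8.05 and 11.0 CPM in PCBP2 knockdown and 8.14, 7.61 and 9.19 CPM in PCBP1 knockdown, against 8.15, 9.48 and 10.5 CPM in control, and these ranges overlap.

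The introns that fell were 291 to 9250 bases long. Where both knockdowns were listed, they were high in control alone or, in Wdr31, in control and PCBP2 knockdown. In Clstn3, a calsyntenin of the cadherin family, an intron of 3268 bases (chr6:124433504-124436771, minus strand) stood at 0.6% in PCBP1 knockdown and 1.0% in PCBP2 knockdown, against 45.9% in control on Day 0. It fell in both deposited tables, with changes of −44.5 points in PCBP1 knockdown (posterior 1) and −44.3 points in PCBP2 knockdown (posterior 0.999), and both comparisons use the same controls. A second Clstn3 intron (chr6:124451469-124451759, 291 bases) stood at 0.5% in PCBP2 knockdown against 38.2% in control (posterior 0.998) and is not listed for PCBP1 knockdown. Clstn3 mRNA stood at 3.11, 2.79 and 3.24 CPM in PCBP1 knockdown and 3.59, 3.06 and 2.34 CPM in PCBP2 knockdown, against 4.46, 4.75 and 3.72 CPM in control. The knockdown libraries were all below the controls, and neither difference was called.

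Wdr31, a WD repeat protein, had an intron of 4767 bases (chr4:62464070-62468836, minus strand) at 0.6% in PCBP1 knockdown and 39.7% in PCBP2 knockdown, against 39.9% in control on Day 0 (posterior 0.982 and 0.00138 in the deposited tables). It therefore fell in PCBP1 knockdown alone, and the difference between the knockdowns was not tested. Ikbip, named for its interaction with the kinase IKBKB, had an intron of 9250 bases (chr10:91083889-91093138, plus strand) at 0.8% in PCBP2 knockdown and 4.8% in PCBP1 knockdown, against 39.8% in control. It fell by 37.8 points in PCBP2 knockdown (posterior 0.989), and in PCBP1 knockdown its posterior of 0.915 lay just outside the threshold although the competing junction rose there to 94.5%, against 59.6% in control (0.970). On Day 2 the intron that fell lay in Pigl, a deacetylase of GPI-anchor synthesis (chr11:62473469-62475538, plus strand, 2070 bases). It stood at 0.5% in PCBP1 knockdown against 49.5% in control on Day 2 (posterior 1), and at 0.2% in all groups on Day 0. The Pigl intron is not listed for PCBP2 knockdown on Day 2.

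The hosts of the called introns had lower median levels than all host genes. On Day 0 their median level, per gene and not per length, was 3.68 CPM for the 3 hosts in PCBP1 knockdown and 4.88 CPM for the 4 hosts in PCBP2 knockdown, against 40.8 and 41.5 CPM over all host genes of those tables. The highest of these hosts was Rnaseh2a, at 34.9 CPM over the Day 0 PCBP1 knockdown and control libraries. Pigl averaged 10.7 CPM over the Day 2 PCBP1 knockdown and control libraries, against a median of 49.5 CPM. Within Pigl the LUC-1 control was the highest library, with 7.57, 12.8 and 8.26 CPM in PCBP1 knockdown against 7.41, 9.25 and 18.7 CPM in control, the last being LUC-1. Which libraries of a pool gave the intron reads was not tested. Outside the thresholds, the nearest introns were those of Ikbip in PCBP1 knockdown (0.915), Cpne7 in PCBP2 knockdown on Day 0 (0.864), Ftsj3 in PCBP1 knockdown (0.690) and Mycbp in PCBP2 knockdown (0.725) on Day 2, and the nearest inside were Wdr31 (0.982) and Ikbip (0.989).

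Below the posterior of 0.95, further introns stood near 0 in one group of the deposited tables and above 20% in the other. On Day 0 in PCBP1 knockdown, Icam1, an adhesion molecule, stood at 28.9% against 0.5% in control (posterior 0.81), with 11.5% in PCBP2 knockdown. The muscle-type myosin gene Myh7b stood at 29.0% against 1.6% (0.828), and Ppp1r12b, a myosin phosphatase subunit, at 29.3% against 0.5% (0.765). In PCBP2 knockdown Cpne7, a calcium-dependent phospholipid-binding copine, stood at 29.6% against 0.5%, with 12.7% in PCBP1 knockdown. Its 54-base interval overlaps the microRNA gene Mir7080 on the same strand.

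Other uncalled introns differed by over 20 points between groups on Day 2. Ftsj3, a nucleolar methyltransferase of ribosome assembly, stood at 28.9% in PCBP1 knockdown against 0.9% in control, and Bsdc1 at 28.8% against 5.7% (posterior 0.504). In PCBP2 knockdown Mycbp, which binds Myc, stood at 29.0% against 0.5%, over an interval that overlaps an exon of the antisense gene Gm12905. Fasl, the Fas ligand, stood at 0.2% in each knockdown against 22.9% in control (0.357 in PCBP1 and 0.388 in PCBP2 knockdown). An intron of Ifitm10 was at 0.4% in PCBP1 knockdown and 54.7% in PCBP2 knockdown, against 26.6% in control. None of these introns was called, while a junction of the Ifitm10 variation rose to 87.7% in PCBP1 knockdown, against 41.4% in control on Day 2 (posterior 0.999).

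Counting all introns by level, 20 variations (in 15 genes) were at 20% or more in PCBP1 knockdown and under 5% in control on Day 0, against 4 (in 3 genes) with the converse pattern. For PCBP2 knockdown on Day 0 they were 25 and 4. On Day 2 they were 9 and 10 in PCBP1 knockdown, and 3 and 3 in PCBP2 knockdown. The days thus differed in balance, which was not tested. The hosts of these introns had median levels of 3.50 and 9.27 CPM in PCBP1 and PCBP2 knockdown on Day 0, and 18.4 and 8.97 CPM on Day 2, below the medians of all host genes in each table.

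Over all members, the mean level was higher in both knockdowns than in control on Day 0 and lower on Day 2. On Day 0 the mean E(PSI) of the intron was 0.495% in PCBP1 knockdown against 0.285% in control and 0.544% in PCBP2 knockdown against 0.300% in control, with medians of 0.1% throughout. An E(PSI) of 10% or more was found for 117 introns in PCBP1 knockdown against 23 in control, and for 128 in PCBP2 knockdown against 27. On Day 2 the means were 0.589% in PCBP1 knockdown against 0.651% in control and 0.581% in PCBP2 knockdown against 0.649%, and introns of 10% or more numbered 95 against 135 and 96 against 141. Changes of 5 points or more in the deposited tables ran 67 up and 14 down in each knockdown on Day 0, and 59 up and 143 down in PCBP1 and 41 up and 146 down in PCBP2 knockdown on Day 2. These are differences between pooled groups with no test, and on each day the knockdowns share their controls.

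Where an intron was listed in both its source and its target variation, the pair of estimates could be set side by side. Of 2639 such introns in the Day 2 PCBP1 table, 21 differed by 5 points or more in at least one of the variations, and 20 of these had the same sign in both. In the PCBP2 table of Day 2 it was 25 of 26, and on Day 0 it was 6 of 6 in each table. The paired variations share the reads of the intron.

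**Figure D3:**
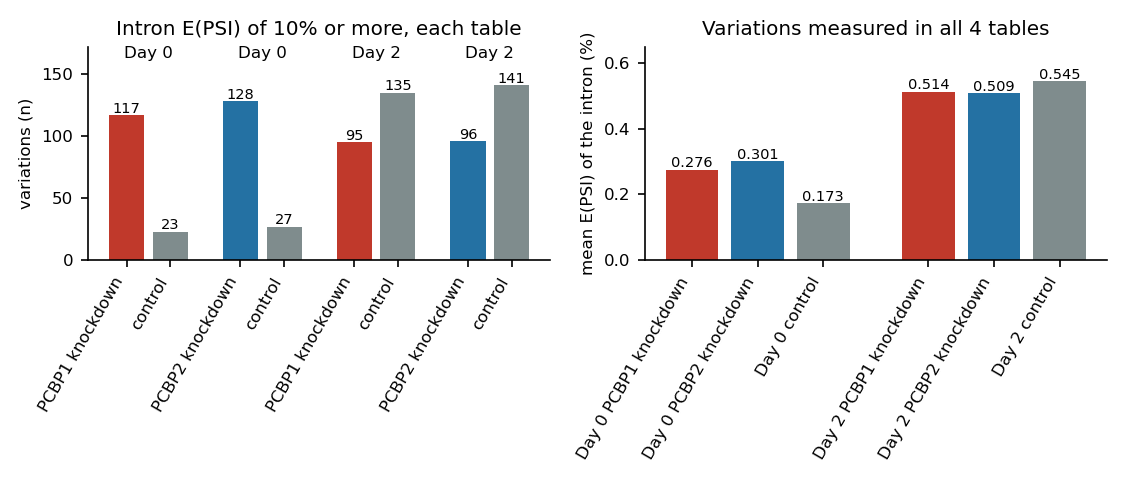
Left, number of variations with an intron E(PSI) of 10% or more in each pooled group of each table. Right, mean E(PSI) of the intron (percent) over the 15474 variations listed in all 4 tables. Day 0 control is the lowest group in both panels, and the 3 Day 2 groups lie between 0.509% and 0.545% on the right.

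The mean level of the introns was higher on Day 2 than on Day 0 in every condition, a comparison of pooled groups with no test. Over the 15474 variations present in all 4 tables, the mean E(PSI) in controls was 0.545% on Day 2 and 0.173% on Day 0. It was 0.514% on Day 2 and 0.276% on Day 0 in PCBP1 knockdown, and 0.509% and 0.301% in PCBP2 knockdown. In controls the intron was higher on Day 2 in 8518 variations, lower in 2288 and equal to 3 decimals in 4668. It was higher by 5 points or more in 250 and lower by as much in 13, and introns at 10% or more numbered 78 on Day 2 and 4 on Day 0. In PCBP1 knockdown 223 were higher and 56 lower by 5 points, and in PCBP2 knockdown 215 and 66. Over all introns listed for a day, the 101 at 10% or more in Day 2 controls had a median length of 167 bases, against 178 for all introns of that group. The 19 at 10% or more in Day 0 controls had a median of 913 bases, against 183.

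The introns most kept in controls on Day 2 were picked for that level, so lower levels in other groups follow in part from the choice. In Day 0 controls they stood near 0, apart from a 1-base interval of Hnrnph3. Hnrnph3 stood at 20.7% in Day 2 controls and 5.2% in Day 0 controls, with 9.0% in PCBP1 and 6.2% in PCBP2 knockdown on Day 2. Gpx3, a secreted glutathione peroxidase, held an intron at 21.5% in Day 2 controls and at 0.2% in Day 0 controls, and the Day 2 values were 0.6% in PCBP1 and 3.8% in PCBP2 knockdown. Ubap2 stood at 19.6% in Day 2 controls, against 0.8% in either knockdown on that day, and Tmem107, a protein of the ciliary transition zone, at 18.7%, with 3.5% in PCBP1 and 0.4% in PCBP2 knockdown. None of these was called (posteriors up to 0.0904 in the deposited tables). Ermap, an erythroid membrane protein, held an intron of 69 bases at 10.9% in PCBP1 knockdown and 17.6% in PCBP2 knockdown against 10.0% in control on Day 2, and at 12.2% and 22.0% against 14.3% on Day 0. It was thus kept in every group.

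Genes of red cell function and of RNA processing were looked at as lists, and no intron of any list was called. The red cell membrane and skeleton list had 162 variations in 19 of its 25 genes. On Day 2 its introns of 5% or more numbered 5 in PCBP1 knockdown against 5 in control, and 3 in PCBP2 knockdown against 6. Band 3 (Slc4a1), the anion exchanger of the red cell, stood at 5.0% in PCBP1 and 5.6% in PCBP2 knockdown, against 14.1% in control on Day 2. An intron of ankyrin 1 (Ank1), which ties the skeleton to the membrane, is listed for PCBP2 knockdown alone, with 0.7% against 12.7%.

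The heme and iron list had 191 variations in 25 of its 30 genes. On Day 2 the protoporphyrinogen oxidase gene Ppox stood at 17.7% in PCBP2 knockdown against 21.1% in control, and Blvrb, a flavin and biliverdin reductase of red cells, at 6.2% in PCBP1 and 6.3% in PCBP2 knockdown against 1.7%. Alad, of heme synthesis, stood at 5.3% in PCBP1 and 7.9% in PCBP2 knockdown against 7.4% in control on Day 0. Of the erythroid transcription factors, 9 of 22 genes had members, and Gata1 stood at 8.6% in PCBP1 and 13.6% in PCBP2 knockdown against 9.2% in control on Day 2, at a 35-base interval. The splicing factor and hnRNP list was the largest, with 426 variations in 46 of 55 genes. On Day 0 none of its introns reached 5% in either knockdown, against 5 in control, and on Day 2 it was 4 in PCBP1 knockdown against 6 and 5 in PCBP2 knockdown against 7 in control.

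Among these, Sf3a1, a subunit of the U2 particle of the spliceosome, held an intron at 14.2% in PCBP1 knockdown and 0.2% in PCBP2 knockdown, against 0.2% in control on Day 2. Hnrnpc stood at 0.5% in PCBP2 knockdown against 18.2%, and is not listed for PCBP1 knockdown. Srsf1, an SR protein, stood at 0.1% in both knockdowns against 15.5% in control on Day 0, at an interval of 23 bases. Of the nonsense-mediated decay list (78 variations, 8 of 16 genes), Rnps1 stood at 9.8% and Upf1 at 6.7% in PCBP1 knockdown, against 0.2% each in control on Day 2, and Casc3 at 4.8% in PCBP2 knockdown against 0.4%. The CLK and DYRK kinase list (49 variations, 6 of 11 genes) had no intron of 5% or more in any table. The PCBP family list had 17 variations, and the introns of Pcbp2 stood at 1.2% or less in all groups of all tables.

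Variations with an intron were called more often for a competing junction than for the intron. The counts are not like for like. Most of these variations hold several junctions beside the intron, and a call of any of them counted. Most introns were also too low in control for a called fall. How far this accounts for the difference was not tested. A rival junction was called in 16 variations (0.0756%) of the Day 0 PCBP1 table, 8 (0.0373%) of the Day 0 PCBP2 table, 40 (0.236%) of the Day 2 PCBP1 table and 7 (0.0417%) of the Day 2 PCBP2 table. The intron itself was not called in 14, 3, 39 and 7 of these. Any part was called in 0.0803%, 0.0373%, 0.236% and 0.0417% of variations with an intron, against 0.0524%, 0.00596%, 0.181% and 0.0791% of variations without one. Over all variations of the 4 tables, in the same order, the shares were 0.0573%, 0.0115%, 0.191% and 0.0718%. The genes below were chosen after their values were seen.

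**Figure D4:**
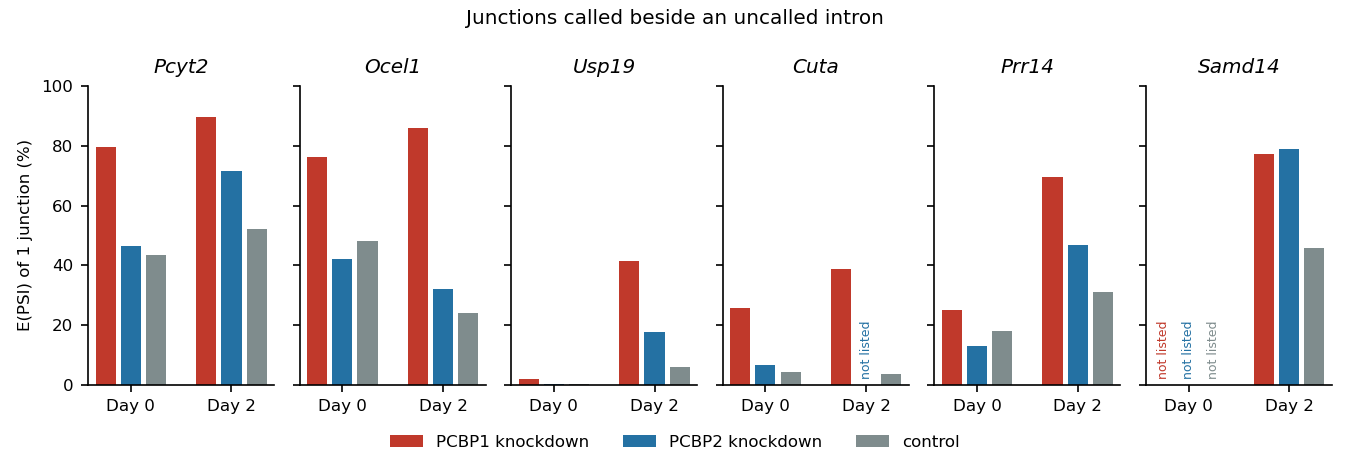
E(PSI) (percent) of 1 junction in each of several variations whose intron was not called, on Day 0 and Day 2, in the pooled libraries of PCBP1 knockdown, PCBP2 knockdown and control. The Pcyt2 and Ocel1 junctions are higher in PCBP1 knockdown than in control on both days.

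Pcyt2 makes CDP-ethanolamine for the synthesis of phosphatidylethanolamine, and its exon skipping was called on both days. The longer junction (chr11:120612601-120613379, minus strand) rose to 79.5% in PCBP1 knockdown, against 43.6% in control on Day 0, and to 89.6% against 52.0% on Day 2. In PCBP2 knockdown it stood at 46.6% on Day 0 and 71.5% on Day 2, with no call. The junction to the inner exon fell to 20.2% in PCBP1 knockdown against 55.5% on Day 0, and to 9.9% against 47.0% on Day 2. The introns of both Pcyt2 variations were at 0.2% or less in every group. Pcyt2 mRNA fell on Day 2, with log2 fold changes of −0.73 (SE 0.11, edgeR adjusted p = 0.000279) in PCBP1 knockdown and −0.71 (edgeR adjusted p = 0.00196) in PCBP2 knockdown.

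In Ocel1 the longer junction (chr8:71371985-71372749) rose to 76.4% in PCBP1 knockdown against 48.2% in control on Day 0, and to 85.9% against 23.9% on Day 2, with 42.2% and 32.2% in PCBP2 knockdown. Of the variations with a called junction and an uncalled intron in PCBP1 knockdown, 3 were in both the Day 0 and the Day 2 list (21.4% of 14 and 7.69% of 39), a pair in Pcyt2 and 1 in Ocel1. Only 4 of the Day 0 list were measured on Day 2, and 35 of the Day 2 list on Day 0.

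The skipped exon of Usp19, a deubiquitinase, is the one printed above. The junction that skips it rose to 41.3% in PCBP1 knockdown against 6.1% in control on Day 2, and stood at 17.7% in PCBP2 knockdown. The inclusion junction fell to 54.9% against 90.7%, and the intron before the exon stood at 0.1% in PCBP1 knockdown and 0.2% in control. On Day 0 the skipping junction was at 2.0% in PCBP1 knockdown against 0.4%. In Cuta the longer junction rose to 38.8% in PCBP1 knockdown against 3.8% on Day 2, and was at 25.6% against 4.4% on Day 0 (posterior 0.681), while the intron printed above stood at 1.5% against 1.9% on Day 2. Prr14, which ties heterochromatin to the nuclear lamina, had its skipping junction rise to 69.6% against 31.1% on Day 2, with 25% against 17.9% on Day 0.

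In the Day 0 PCBP1 table the longer junction also rose in Gtf2ird1, a transcription factor of the TFII-I family (50.5% against 15.0%), and in Tcf3, the E-protein gene whose paired exons give E12 and E47 (57.1% against 12.1%, with 12% in PCBP2 knockdown). The longer junction of Rpusd1 rose to 63.9% against 23.8%, and beside it the intron was at 10.4% against 0.1% with a posterior of 0.000123. On Day 2 Son, a splicing cofactor of nuclear speckles, had a junction at 52.7% in PCBP1 knockdown against 16.1%. Among variations with a called junction, the rising junction spanned more bases than the falling one in 11 of 16 (68.8%) and 31 of 40 (77.5%) in PCBP1 knockdown on Day 0 and Day 2, and in 6 of 8 (75%) and 3 of 7 (42.9%) in PCBP2 knockdown. For variations without an intron these shares were 61.5%, 75.8%, 50% and 40%.

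A group of Day 2 variations in PCBP1 knockdown differed from Day 0 in the control. In Zmiz2, a transcriptional coactivator of the PIAS-like family, one junction stood at 4.4% in PCBP1 knockdown (posterior 0.944) and at 31.2% in PCBP2 knockdown, against 45.2% in Day 2 control, and it was at 0.8% in Day 0 control. Its competitor rose to 93.9% in PCBP1 knockdown, against 53.8% in Day 2 control and 99.0% in Day 0 control. The same shape was seen in Pi4kb, a phosphatidylinositol kinase (93.8% against 52.0% on Day 2, with 99.5% in Day 0 control), and in the amino acid transporter Slc1a4 (82.4% against 41.7%, with 98.8%). Mrpl2, of the mitochondrial ribosome, stood at 98.2% against 61.8%, with 96.7% in Day 0 control. In these 4 genes the called junction of the Day 2 PCBP1 knockdown was nearer to Day 0 control than Day 2 control was. They were picked for this pattern, and the remaining called junctions were not counted for it. The junctions given above for Usp19, Ocel1, Pcyt2, Cuta and Prr14 went the other way. There the Day 2 PCBP1 knockdown lay further from Day 0 control than Day 2 control did. The introns of Zmiz2, Pi4kb, Slc1a4 and Mrpl2 were at 0.8% or less in PCBP1 knockdown and control.

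In PCBP2 knockdown the called junctions were fewer. On Day 0 Srpk2, a kinase of SR splicing proteins, had a junction that fell to 68.6% against 99.1% in control (posterior 0.985), while a longer one stood at 28.1% against 0.6% (0.918) and at 0.1% in PCBP1 knockdown. On Day 2 a junction of Rundc3a rose to 64.0% in PCBP2 knockdown against 30.7%, with 49.0% in PCBP1 knockdown. Samd14, which takes part in Kit signalling of mouse erythroid precursors, had a junction that rose to 78.8% in PCBP2 knockdown against 45.7%, with 77.2% in PCBP1 knockdown (0.941). The glucose transporter Slc2a1 had a junction that fell to 25% against 61.2%, and Pabpc4, a poly(A)-binding protein, one that fell to 36.5% against 70.8%. Hosts of called junctions had a median of 101 CPM in PCBP1 knockdown and 260 CPM in PCBP2 knockdown on Day 2, and of 5.73 and 4.47 CPM on Day 0.

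The gene expression of the hosts was tested in the 18 libraries. Of 4296 host genes in the annotation, 4240 passed the filter on low counts. In PCBP1 knockdown on Day 0, 2 hosts rose and 85 fell (0.0472% and 2% of hosts), while 0.0457% of all genes tested rose and 0.834% fell. In PCBP2 knockdown on Day 0 none rose and 3 fell (0% and 0.0708% of hosts), while 0% of all genes rose and 0.0229% fell. On Day 2, 284 rose and 646 fell in PCBP1 knockdown (6.7% and 15.2% of hosts), beside 5.51% and 7.61% of all genes. In PCBP2 knockdown 39 rose and 365 fell on Day 2 (0.92% and 8.61% of hosts), beside 0.949% and 3.75% of all genes. Median log2 fold changes of hosts were −0.04, 0.00, −0.03 and −0.10, against −0.01, 0.01, 0.02 and −0.01 for all genes. Leaving out single libraries moved the Day 0 PCBP1 count to between 8 (without SH1) and 80 (without LUC-1), with 10 without SCR-2, 12 without SH4, 22 without SCR-1 and 46 without SH3. The Day 2 PCBP2 count was 243 without SH4. Fitted on only the libraries of the groups compared, host calls numbered 655 for PCBP1 knockdown on Day 0, and 244 for PCBP1 and 2 for PCBP2 knockdown on Day 2.

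Scaling to library totals in place of TMM turned the Day 2 balance round. Hosts then rose in 1181 and fell in 300 cases in PCBP1 knockdown and rose in 285 and fell in 122 in PCBP2 knockdown, as the median of all genes moved to 0.25 and 0.19 on the log2 scale. The directions on Day 2 are therefore relative to the other genes of these libraries. The erythroid markers summed to 359523 to 381083 CPM in PCBP1 knockdown and 368025 to 445658 CPM in PCBP2 knockdown, against 451556 to 623705 CPM in control on Day 2, and their part in these results was not tested. In bulk RNA, fewer cells of a type and less RNA per cell cannot be told apart.

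A second view came from annotated transcripts that keep a member intron, which were quantified per library. GENCODE M21 holds 2653 such transcripts for 2597 of the introns, 2025 were in the quantification and 1808 passed the filter. Of the 2653, 1930 are annotated as retained-intron transcripts and the others are of other types. All are called retention transcripts here, although a listed interval inside an exon need not be an annotated intron. On Day 0 in PCBP1 knockdown 2 rose and 1 fell (0.111% and 0.0553% of those tested), while 0.0192% of all transcripts rose and 0.0554% fell, and all 3 calls were lost without SCR-1, without SCR-2 or without SH4. In PCBP2 knockdown edgeR called 0 either way, with 53 at an unadjusted p under 0.05 and 3 called by DESeq2, while 0.00426% of all transcripts rose and 0.00853% fell. On Day 2, 22 rose and 54 fell in PCBP1 knockdown (1.22% and 2.99% of those tested), beside 1.41% and 1.88% of all transcripts. In PCBP2 knockdown 4 rose and 9 fell on Day 2 (0.221% and 0.498%), beside 0.192% and 0.727% of all transcripts. Scaled to library totals these were 51 and 26, and 10 and 2. Fitted by edgeR on only the libraries of the groups compared, 0 were called on Day 2 in either knockdown, with 221 and 138 at an unadjusted p under 0.05 in PCBP1 and PCBP2 knockdown, and DESeq2 called 185 and 90. Leaving out 1 library at a time gave 26 to 83 calls for PCBP1 and 5 to 23 for PCBP2 knockdown on Day 2.

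Most that fell did so with their gene. Of the 54 lower transcripts in PCBP1 knockdown on Day 2, 44 had a host gene that fell too, and of the 22 higher ones 8 had a host that rose, 2 a host that fell and 12 a host that was not called. Where the transcript was tested relative to its gene as a whole (diffSpliceDGE), 7 of 1804 rose and 9 fell in PCBP1 knockdown on Day 2, while 0.584% of all 38216 transcripts so tested rose and 0.644% fell. In PCBP2 knockdown 6 rose and 7 fell, beside 0.447% and 0.612% of all transcripts. On Day 0, 2 rose and 4 fell in PCBP1 knockdown by this test, beside 0.243% and 0.353% of all transcripts, and none rose and 2 fell in PCBP2 knockdown, beside 0.118% and 0.133%.

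The Blvrb transcript ENSMUST00000108358 rose while its gene fell. It stood at 13.0, 15.0 and 15.5 CPM in PCBP1 knockdown, against 6.78, 8.06 and 9.52 CPM in control on Day 0 (log2 fold change 0.83, SE 0.12, edgeR adjusted p = 0.0172). Blvrb as a whole stood at 54.4, 76.5 and 60.3 CPM, against 132, 144 and 122 CPM (−1.06, SE 0.14, edgeR adjusted p = 0.000552). No group overlapped the other in either measure. The Smim1 transcript ENSMUST00000182191, of the gene that carries the Vel blood group in humans, rose to 5.69, 6.19 and 5.12 CPM against 1.73, 2.46 and 1.91 CPM (1.48, SE 0.25, edgeR adjusted p = 0.0406), and Smim1 mRNA was not called. The Srrm2 transcript ENSMUST00000186914, of a large splicing cofactor, fell on both days. It stood at 18, 19.3 and 17.3 CPM in PCBP1 knockdown against 31.2, 35.8 and 28.2 CPM on Day 0 (−0.80, SE 0.12, edgeR adjusted p = 0.0183), and at 125, 129 and 148 CPM against 238, 266 and 204 CPM on Day 2 (edgeR adjusted p = 0.00238), while Srrm2 as a gene was not called on either day (edgeR adjusted p = 0.997 and 0.339). Relative to their genes, the Blvrb and Srrm2 transcripts were called on Day 0 (diffSpliceDGE adjusted p = 7.32e-05 and 0.0289). The Smim1 transcript on Day 0 and the Srrm2 transcript on Day 2 were not (diffSpliceDGE adjusted p = 0.378 and 0.0927).

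On Day 2 the Son transcript ENSMUST00000147891 rose to 193, 198 and 164 CPM in PCBP1 knockdown, against 114, 109 and 121 CPM in control (0.69, SE 0.09, edgeR adjusted p = 0.00103). The Slc25a36 transcript ENSMUST00000124250, of a mitochondrial nucleotide carrier, rose to 39.8, 28.5 and 36.7 CPM against 14.2, 17.1 and 12.1 CPM (1.27, SE 0.21, edgeR adjusted p = 0.00589), together with its gene, which stood at 1780, 1656 and 1614 CPM against 984, 1061 and 946 CPM. The Ppox transcript ENSMUST00000152689 fell to 220, 339 and 244 CPM against 543, 641 and 812 CPM (−1.32, SE 0.19, edgeR adjusted p = 0.00238). The Prdx2 transcript ENSMUST00000125893 fell to 72.5, 87.5 and 89.2 CPM against 148, 169 and 142 CPM (−0.88, edgeR adjusted p = 0.00183), with its gene at 3862, 4643 and 4334 CPM against 5759, 6216 and 6187 CPM. In each of these the 3 knockdown libraries lay on one side of the 3 controls. Relative to its gene none of these transcripts was called on Day 2 in PCBP1 knockdown. The relative log2 changes were 0.50 for Son, 0.49 for Slc25a36, −0.26 for Ppox and −0.41 for Prdx2.

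A transcript of the amino acid transporter gene Slc1a5, ENSMUST00000127401, fell in both knockdowns on Day 2. It stood at 108, 114 and 98.6 CPM in PCBP1 knockdown and 143, 141 and 161 CPM in PCBP2 knockdown, against 203, 218 and 334 CPM in control, with LUC-1 the highest (edgeR adjusted p = 0.000624 and 0.0239). A transcript of the kinase gene Akt1, ENSMUST00000123563, was at 0.458, 0.512 and 0.287 CPM in PCBP1 knockdown and 0.393, 0.378 and 0.241 CPM in PCBP2 knockdown, and at 0 in all 3 Day 2 controls (edgeR adjusted p = 0.000543 and 0.00262). In PCBP2 knockdown a transcript of the deubiquitinase gene Otud5 rose to 55.7, 52.9 and 51.8 CPM against 35.1, 23.2 and 31.6 CPM (0.84, edgeR adjusted p = 0.0281), and one of the noncoding host gene Zfas1 to 18.6, 18.4 and 17.1 CPM against 11.4, 12.1 and 8.01 CPM (0.78, edgeR adjusted p = 0.0252). Relative to its gene the Akt1 transcript was called in both knockdowns (diffSpliceDGE adjusted p = 0.0285 and 0.0441). The Slc1a5 transcript was not called in either by that test (−0.27 and −0.29), nor were those of Otud5 and Zfas1 in PCBP2 knockdown (0.97 and 0.21).

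In controls the retention transcripts had a higher median change between the days than all transcripts. On Day 2 against Day 0, 686 rose and 445 fell (37.9% and 24.6% of those tested), beside 30.4% and 30.8% of all transcripts, with a median log2 fold change of 0.26 against −0.23 for all transcripts. Scaled to library totals, 411 rose and 860 fell, with medians of −1.05 and −1.53. Host genes ran the other way under TMM, with 1574 higher and 2275 lower (37.1% and 53.7% of hosts), beside 40.5% and 42.4% of all genes, and a median of −0.50. Relative to the gene as a whole, 342 rose and 53 fell, beside 10.6% and 4.2% of all transcripts so tested, with a median log2 change of 0.75 against 0.16 for all transcripts. Of the 686 that rose, 561 had a host gene that rose and 69 one that fell.

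The Ypel4 transcript ENSMUST00000151647 stood at 1181, 1314 and 1371 CPM in Day 2 controls and at 2.72, 3.93 and 3.09 CPM in Day 0 controls (8.63, SE 0.21). A transcript of the translation factor gene Eif5, ENSMUST00000050993, stood at 5329, 5291 and 4909 CPM on Day 2 and 98.4, 103 and 110 CPM on Day 0. On the falling side, the Ncl transcript ENSMUST00000185676, of the nucleolar protein nucleolin, stood at 205, 210 and 171 CPM on Day 2 and 1154, 1173 and 1367 CPM on Day 0 (−2.66). Relative to their genes, the Ypel4 and Ncl transcripts changed by −0.04 and 0.01 on the log2 scale and were not called. The Eif5 transcript was higher by 0.97 relative to its gene (diffSpliceDGE adjusted p = 1.38e-05).

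As a share of the TPM (a per-length scale) of their genes, retention transcripts took 9.0%, 9.10% and 9.24% in PCBP1 knockdown and 10.0%, 10.2% and 10.4% in PCBP2 knockdown, against 9.70%, 10.0% and 9.36% in control on Day 2. On Day 0 they took 6.02%, 5.98% and 5.99% in PCBP1 knockdown and 5.84%, 6.04% and 5.80% in PCBP2 knockdown, against 5.73%, 5.63% and 5.82% in control. PCBP1 knockdown lay above control by 0.274 points on Day 0 and 0.578 points below it on Day 2 (−0.578), with no overlap either time. An exact two-sided permutation test gave p = 0.1 for each, the smallest that 3 libraries against 3 can give. For PCBP2 knockdown the differences were 0.167 points on Day 0 and 0.498 points on Day 2 (exact permutation p = 0.2 each), and the groups overlapped. Day 2 controls averaged 9.69% ± 0.322 and Day 0 controls 5.72% ± 0.0948 (SD, n = 3 each), a difference of 3.96 points (exact permutation p = 0.1). The TPM of the retention transcripts themselves overlapped, at 15014, 14476 and 11882 in Day 2 controls and 14497, 14319 and 13907 in Day 0 controls. That of their genes was lower on Day 2, at 154831, 144667 and 126904, against 253159, 254369 and 239008 on Day 0. The higher share in Day 2 controls thus came with less TPM of the genes and not with more of the retention transcripts. Benjamini-Hochberg adjustment of the exact permutation values over these 5 comparisons gave 0.167 for the 3 with p = 0.1 and 0.2 for the others.

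**Figure D5:**
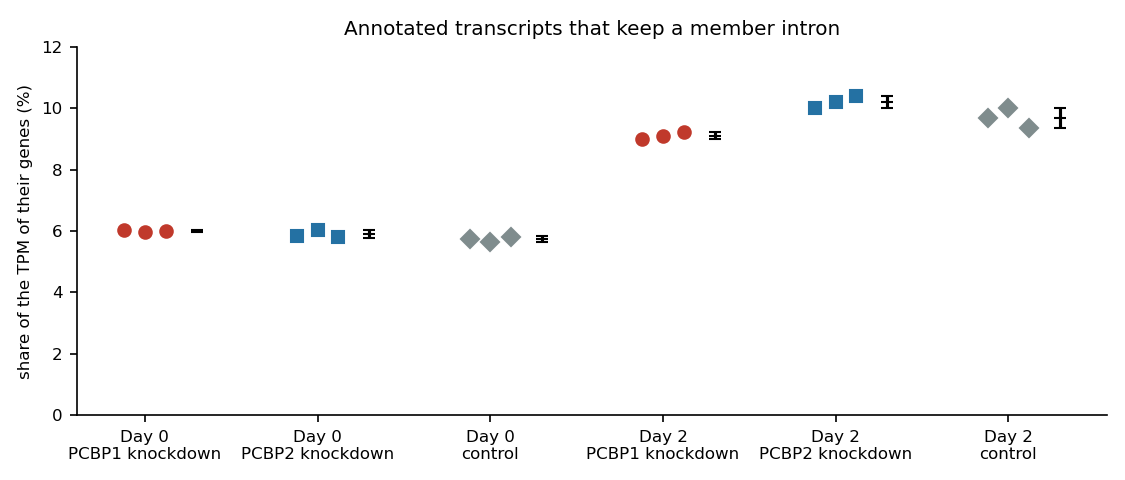
Share of the TPM of their genes (percent, y axis) taken by annotated transcripts that keep a member intron, in each of the 18 libraries (points) with group means and SD (bars). All 9 Day 2 libraries lie between 9.0% and 10.4%, above the 9 Day 0 libraries.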

How the data were processed

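RNA sequencing libraries of 18 samples (6 groups of 3) were used. Per the submitters' processing notes, the tools were FastQC 0.11.9, Trim Galore 1.46.0, STAR 2.5.3a, SAMtools 1.9 and Salmon 0.11.3, with GRCm38. The authors deposited estimated counts per transcript for each library, and 4 tables of local splicing variations whose fractions, changes and posteriors come from pooled libraries. Their headers name no tool. TPM was deposited by the authors beside the estimated counts.

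Members are variations whose type lists an intron. The intron is the last part, and a call is a deposited posterior of 0.95 or more. Estimated counts of the 110403 of 111706 transcripts found in GENCODE M21 (the others held 0.275% to 0.579% of reads) were rounded, summed to genes, filtered (filterByExpr), scaled by TMM and fitted with edgeR 4.0.16 (quasi-likelihood, 6 group means, all 18 libraries, R 4.3.3), with Benjamini-Hochberg adjustment over all 17500 genes or 46901 transcripts and a threshold of 0.05. A retention transcript has 1 exon over a member intron of at least 30 bases, whatever its annotated type. That minimum was chosen after seeing the data. Counts were also simulated for the Day 0 PCBP1 comparison alone, with the same dispersion for every gene. A gene fit of only those groups recovered 200 of 200 genes changed 4-fold, none at low levels, with 11 false calls among 15307. That simulation did not test the fit of all 18 libraries, smaller changes or weakly expressed genes. DESeq2 1.42.0 was an alternative. The labels do not say that samples came from separate cultures, so p-values measure the spread between these libraries. Depth was 27033440 to 54096339 estimated reads, which sets the counting error of the mRNA values. The depth of a splicing variation is not given.

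Introns named are the called ones, filled up to 4 a direction by the highest posterior, up to 3 of each list and the most retained in controls. The members and lists were chosen with earlier results of these data known. Motifs in introns were not analysed here, since an annotated transcript holds the sequence of 13.4% of them, under the 80% set for such a check, and some introns, genes and transcripts that the rule names are not reported here.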

Additional observations from a re-analysis of the deposited data

Results flagged for a closer look

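Some results moved one way in every PCBP1 or PCBP2 knockdown library on Day 0 and the other way in every one on Day 2, relative to the controls of the same day. They were picked for this pattern. The difference between the days was not tested for any of them, and their cause was not tested. The share of gene TPM in retention transcripts differed by 0.274 points on Day 0 and by −0.578 points on Day 2 in PCBP1 knockdown. The Blvrb transcript ENSMUST00000108358 had log2 fold changes of 0.83 on Day 0 and −0.42 on Day 2 in PCBP1 knockdown, and of 0.54 and −0.34 in PCBP2 knockdown. The Eif5 transcript ENSMUST00000050993 had 0.17 and −0.35, and the Ppox transcript ENSMUST00000155083 0.38 and −0.67, in PCBP1 knockdown on Day 0 and Day 2. Casc3 mRNA had 0.09 and −0.31 in the same comparisons. The Akt1 transcript ENSMUST00000123563 differed in mean CPM by −0.606 on Day 0 and by 0.337 on Day 2 in PCBP2 knockdown. No transcript named here was called on both days in the same knockdown. In PCBP1 knockdown Blvrb was called on Day 0 alone (edgeR adjusted p = 0.0172), and Eif5 and Ppox on Day 2 alone (edgeR adjusted p = 0.0254 and 0.0335). In PCBP2 knockdown Akt1 was called on Day 2 alone (edgeR adjusted p = 0.00262) and Blvrb on neither day.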

How the results depend on the processing

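With a posterior of at least 0.50, or by a change of 20 points whatever the posterior, introns called higher numbered 8 and 10 in PCBP1 and PCBP2 knockdown on Day 0 and 3 and 3 on Day 2, and introns called lower in PCBP1 knockdown on Day 2 numbered 3. Among variations with no other flag, 0 introns were called higher or lower in either knockdown on Day 0, or lower in PCBP1 knockdown on Day 2. The other intron alternatives kept the counts within 1.5 times. For host genes, no filter on low counts gave 228 calls for PCBP1 and 13 for PCBP2 knockdown on Day 0, DESeq2 gave 216 and 5 on Day 0 and 735 for PCBP2 knockdown on Day 2, and scaling to library totals gave 1481 for PCBP1 knockdown on Day 2. Fits on only the libraries of the groups compared gave 655 host calls for PCBP1 knockdown on Day 0, and 244 for PCBP1 and 2 for PCBP2 knockdown on Day 2. For retention transcripts, the same fits gave 0 for PCBP1 knockdown on Day 0 and 0 for each knockdown on Day 2. DESeq2 gave 30 and 3 on Day 0 and 185 and 90 on Day 2 for PCBP1 and PCBP2 knockdown, no filter gave 35 and 7 on Day 2, and the test relative to the gene gave 6 and 2 on Day 0, 16 for PCBP1 knockdown on Day 2 and 395 between the days. The cause of these moves was not tested. Leaving out 1 library at a time gave 8 to 80 and 2 to 3 host calls for PCBP1 and PCBP2 knockdown on Day 0, 634 to 1076 and 243 to 491 on Day 2, and 3794 to 3837 between the days. Retention transcript calls ranged over 0 to 3 and 0 to 0 on Day 0, 26 to 83 and 5 to 23 on Day 2, and 1022 to 1098 between the days. On Day 2 the PCBP1 count of retention transcripts was 26 without SH1, 34 without SH4, 38 without LUC-1 and 39 without SCR-2, and the PCBP2 count 5 without SH4, 6 without SH3, 21 without SCR-1 and 23 without SCR-2. With the hairpin label shared by the control libraries of both days as a replicate block, 860 retention transcripts and 3760 host genes were called between the days. Same-label controls did not deviate together (correlations of −0.00349 to 0.0267), and the main fit did not pair the days by label.

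The splicing tables give pooled values, so no spread over hairpins can be set beside an E(PSI), and depth is unknown for each variation. Most called introns lie in weakly expressed genes. For intervals of a few bases, and for those that overlap another gene, the source of the reads was not tested.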
